A study of Mus musculus with 40 samples.

Results

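Cd36, the scavenger receptor that carries long-chain fatty acids into cells, was examined together with 9 other genes of adipocytes and lipid storage: Pparg, Fabp4, Lpl, Plin1, Plin2, Plin4, Cebpa, Adipoq and Cfd. These 10 genes were chosen by name, and each matched 1 of the 24062 genes in the count table. The data are RNA-Seq counts per gene from mouse embryonic fibroblasts (MEFs), primary cells isolated from embryos, here of day 13.5 and at passage 3. The embryos had a mixed C57BL/6J and 129P2OlaHsd background and were WT, heterozygous (Het) or KO (labelled null) for Sall2, a zinc finger transcription factor whose locus had been targeted in 129P2 embryonic stem cells. Cells were grown without treatment (control) or with 1 µM doxorubicin, a topoisomerase poison that breaks DNA, for 16 h. WT and Het had 1 culture each and KO had 3, so the spread between cultures of a genotype could be measured only in KO.

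In adipocytes, PPARγ (Pparg) and C/EBPα (Cebpa) are the transcription factors that drive differentiation and keep each other expressed. Their targets include genes for the uptake of fatty acids (Cd36, Lpl), for their transport inside the cell (Fabp4), for the coats of lipid droplets (the perilipins Plin1, Plin2 and Plin4) and for secreted proteins (Adipoq, Cfd). MEFs are not adipocytes but can be driven to become them in culture, and CD36 is also abundant on macrophages, where it takes up oxidized lipoproteins.

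The libraries of KO 2 and KO 3 with doxorubicin were identical in every one of the 24062 genes. They entered once, under the name KO 2, which left 5 control and 4 doxorubicin libraries. Which of the 2 embryos this library came from is not known from the files, so every ratio given for KO 2 takes it as KO 2, and KO 3 has no treated library of its own. Their totals lay between 15560728 and 24122414 counts. Sall2 itself was at 38.0 CPM (counts scaled to library size) in WT, 24.0 in Het and 19.1 to 24.4 in KO controls, and with doxorubicin at 9.36, 7.80 and 3.72 to 4.19 CPM. Its transcript was thus present in KO cultures. Het and KO overlapped in control, whereas with doxorubicin Het lay above both KO libraries. The Het and KO 3 cultures stood apart from the rest. The summed level of 10 interferon-stimulated genes was 1901 CPM in Het and 2155 in KO 3 controls, against 18.9 in WT, 33.1 in KO 1 and 22.7 in KO 2. The summed level of 9 fibroblast markers, collagens and fibronectin among them, was 20119 CPM in Het and 16370 in KO 3, and 78846 to 96479 in the other controls. No fibroblast marker was at 0 in any library. The fitted changes of the members with doxorubicin are also given without these cultures where that changes the call.

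The sequences shown here are those by which Cd36 was measured a second way in the study, by quantitative PCR, and the promoters of the member that varied most between cultures (Cd36) and of the member that rose most clearly with doxorubicin (Cebpa). Both PCR primers for Cd36 lie in coding sequence of a single exon that all 6 GENCODE transcripts of the gene contain, so the assay does not separate isoforms. On GRCm38 the forward primer is at chr5:17828875-17828894 and the reverse primer at chr5:17828785-17828807, which gives a product of 110 bases. The forward primer matched the transcripts without mismatch. The reverse primer, as listed by the study, had 1 mismatch, C7T counted from its 5′ end with the primer's base first, which is in capitals.
Cd36 forward primer: atgggctgtgatcggaactg
Cd36 reverse primer: gtcttcCcaataagcatgtctcc

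Promoters were taken from RefSeq (GRCm38.p6), 250 bases before the start, which gave 10 promoters for 8 of the 10 genes. Fabp4 and Lpl had no entry. They were searched on both strands for the DR1 element, a direct repeat bound by PPARγ with RXR, for the C/EBP motif TTGCNNAA and for TATAAA. No match overlapped another. The Cd36 promoter at chr5:17835897-17836146 on the minus strand held none of them. The GENCODE gene, at chr5:17781690-17888801, extends further upstream than this window, and starts there were not searched. The Cebpa promoter at chr7:35119043-35119292 on the plus strand held TATAAA, in capitals, from 30 to 25 bases before the start.
Cd36 promoter: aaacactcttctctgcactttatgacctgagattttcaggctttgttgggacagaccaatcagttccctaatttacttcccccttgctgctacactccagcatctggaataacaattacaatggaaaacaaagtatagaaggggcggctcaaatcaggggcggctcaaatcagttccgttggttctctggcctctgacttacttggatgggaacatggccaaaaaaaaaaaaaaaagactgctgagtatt
Cebpa promoter: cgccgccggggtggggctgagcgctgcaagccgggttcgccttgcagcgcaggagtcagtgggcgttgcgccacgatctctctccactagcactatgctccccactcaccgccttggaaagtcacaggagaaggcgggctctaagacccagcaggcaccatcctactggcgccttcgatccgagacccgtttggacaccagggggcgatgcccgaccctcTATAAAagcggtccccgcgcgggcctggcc

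Of the other members, 1 of 3 Pparg promoters held TATAAA (on the minus strand) and another held 2 C/EBP motifs, as did the Plin1 promoter. No DR1 element was found in the 10 promoters. Of 32851 mouse promoters of the same length, 0.0335% held the DR1 letters, 9.56% the C/EBP letters and 12.4% TATAAA, so a DR1 match is rare in windows of this size and the other motifs are not.

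In the untreated cultures the 10 genes covered a wide range of levels. Per length (RPKM, from CPM and the exon bases of each gene), Plin2, which coats droplets in most cell types, was highest, with a median of 49.7 and a range of 43.1 to 62.6 over the 5 controls. Cebpa followed with a median of 3.20 RPKM (1.57 to 4.75), then Cd36 with 1.50 (1.00 to 38.0), Fabp4 with 1.32 (1.18 to 3.17), Lpl with 0.993 (0.773 to 2.67) and Pparg with 0.841 (0.333 to 1.94). Plin4 had a median of 0.135 RPKM (0.0985 to 0.218). Plin2 lay above and Plin4 below the 5 genes between them in every control, whereas those 5 overlapped their neighbours in the order over the controls. Within each control library, however, Cebpa was above Pparg. The genes most restricted to mature adipocytes were at or near 0. Plin1, the droplet coat of adipocytes, had 0 or 1 counts in each control, the adipokine gene Adipoq had 0 or 1, and Cfd, the gene of the secreted protease adipsin, had 0 in all 5, where a count of 0 allows up to 3 counts, a mean of 0.147 CPM over the controls. That limit covers counting error only.

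**Figure D1:**
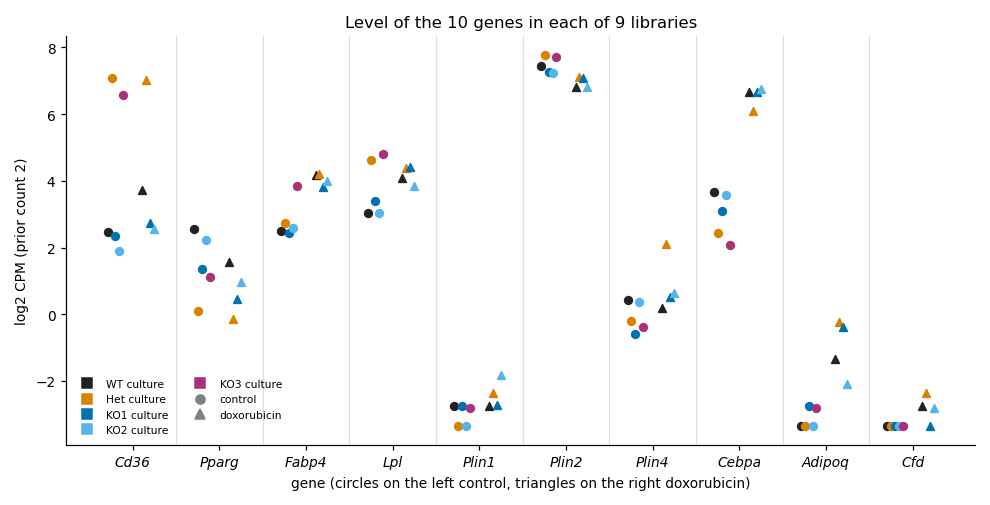
Level of each of the 10 genes (log2 CPM, prior count 2) in 5 control libraries (circles) and 4 doxorubicin libraries (triangles), coloured by culture, 1 point a library. Cd36 separates the Het and KO 3 cultures (136.6 and 95.4 CPM in control) from the rest, and Cebpa separates the treatments.

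Cd36 differed more between untreated cultures than any other member. Its level was 5.39 CPM in WT (107 counts), 136.6 in Het (3337 counts), 5.02 in KO 1 (97 counts), 3.61 in KO 2 (64 counts) and 95.4 in KO 3 (2116 counts). Het and KO 3 were far above the other 3 cultures, which lay close together, so the high level did not follow genotype. Relative to WT this was 25.4-fold higher in Het and 17.7-fold higher in KO 3, and 0.932 and 0.670 of WT in KO 1 and KO 2. With scalings other than TMM, Het was 25.6- to 38.5-fold and KO 3 18.0- to 26.2-fold above WT. The range over the 5 controls (log2 CPM with a prior count) was 36.9-fold, and 0.666% of 16656 genes had a wider one, against a median range of 2.04-fold. The mean over the KO controls was 34.7 CPM ± 52.6 (SD, n = 3).

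Lpl, the lipase that frees fatty acids from lipoprotein triglycerides, was higher in the same cultures. It was at 8.10 CPM in WT, 24.5 in Het, 10.4 in KO 1, 8.17 in KO 2 and 28.0 in KO 3. Het and KO 3 again lay above the rest, with a range of 3.43-fold that 23.5% of genes exceeded. Fabp4, the fatty acid binding protein of the adipocyte cytosol that macrophages also make, was at 5.59 CPM in WT, 6.51 in Het, 5.28 in KO 1, 5.92 in KO 2 and 14.3 in KO 3. KO 3 stood out among these 5 libraries, at 2.55 to 3.77 of WT over the scalings, while Het was at 1.17 to 1.77.

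Cebpa, and in Het also Pparg, were lowest in those cultures. Pparg was at 5.74 CPM in WT, 0.982 in Het (24 counts), 2.48 in KO 1, 4.62 in KO 2 and 2.07 in KO 3. Het was lowest, KO 3 and KO 1 were close to each other, and the range was 5.40-fold. The order of KO 1 and KO 3 depends on the scaling: relative to WT they were at 0.433 and 0.362 with TMM, and at 0.428 and 0.534 by library size alone. Cebpa was at 12.5 CPM in WT, 5.32 in Het, 8.43 in KO 1, 11.8 in KO 2 and 4.15 in KO 3, also lowest in KO 3 and Het. Cebpa was lowest in these cultures with each of the 4 scalings, at 0.331 to 0.489 of WT in KO 3 and 0.425 to 0.645 in Het.

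Perilipins varied less. Plin2 was at 174.6 CPM in WT, 219.8 in Het, 152.3 in KO 1, 151.3 in KO 2 and 208.1 in KO 3, highest in Het and KO 3, with a range of 1.45-fold that 78.8% of genes exceeded. Over the scalings Het was at 1.26 to 1.91 and KO 3 at 1.19 to 1.76 of WT. Plin4 had 11 to 25 counts a control, at 0.569 to 1.26 CPM, with no separation of these cultures.

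The sum of macrophage markers moved with Cd36. The summed level of 12 macrophage markers was 231.7 CPM in WT, 789.8 in Het, 169.7 in KO 1, 129.1 in KO 2 and 553.2 in KO 3, and none of the 12 was at 0 in any library. Among them, Emr1 (F4/80) was at 106.6 CPM in Het and 59.3 in KO 3 against 4.96 to 10.3 in the others. Aif1 was at 30.7 and 18.1 CPM against 0.282 to 0.755. Ptprc, Lyz2, Tyrobp, Fcer1g, Itgam, Cd14 and C1qb were also higher in Het and KO 3 than in every other control. The remaining markers followed less or not at all. Cd68 was at 12.7 CPM in Het, 9.33 in KO 3 and 8.35 in WT. Csf1r was lower in KO 3 (22.8) than in WT (28.9) or KO 1 (26.3). C1qa was highest in WT, at 24.0 CPM, and lowest in KO 3, at 5.95. Cd36 was not in a fixed proportion to the sum: it amounted to 17.3% of it in Het and 17.2% in KO 3, and to 2.32% in WT, 2.96% in KO 1 and 2.79% in KO 2. The interferon-stimulated genes and the lower fibroblast markers given above moved with it as well. The part of these in the level of Cd36, Lpl, Pparg and Cebpa was not tested, and in bulk RNA fewer cells of a type and less RNA per cell cannot be told apart. Summed skeletal muscle markers were at 177.5 CPM in Het and 116.8 in KO 3. The other controls lay at 141.2 to 227.0 CPM. Acta1 and Des made up most of that sum in every control, and neither was raised in Het and KO 3. Myog, however, was at 7.57 CPM in Het and 3.56 in KO 3 against 0.103 to 0.453 in the others. Myh3, Tnnt3 and Myod1 were likewise higher in Het and KO 3, and Myf5 and Ckm had at most 3 counts a control. The part of the muscle markers was not tested either.

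**Figure D2:**
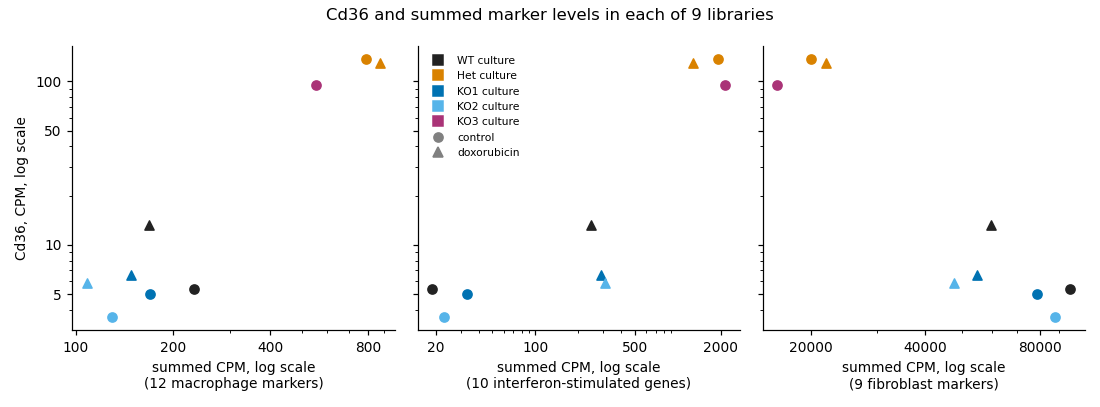
Cd36 (CPM, log axis) against the summed CPM (log axes) of 12 macrophage markers, 10 interferon-stimulated genes and 9 fibroblast markers, 1 point for each of 9 libraries, circles for control and triangles for doxorubicin. The 3 libraries with Cd36 at 95.4 CPM or more are those of Het and KO 3, which have the highest macrophage and interferon sums and the lowest fibroblast sums.

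The genes whose pattern over the 9 libraries was most like that of Cd36 were Gmip, AF251705, Fpr2, Clec4d and Cd69, with Pearson correlations of log2 CPM of 0.993 to 0.988 among 13859 genes with an average of at least 1 CPM. Each was highest in the 2 Het libraries and KO 3. Fpr2, a formyl peptide receptor, was at 5.81 and 3.23 CPM in Het and 3.16 in KO 3, and at no more than 0.149 in the other 6 libraries. These correlations describe the split between 3 and 6 libraries, and carry no more points than that. For Lpl the most alike were Slfn5, Camta1, Fbxo44, Fis1 and Mycbp (0.990 to 0.981), and for Pparg they were Bmp5, Mecom, Hoxc8, Rb1cc1 and Slc5a7 (0.958 to 0.941).

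KO was compared with WT in the controls to ask whether the genes depend on Sall2. Of the 10 genes, 7 had enough counts for edgeR's quasi-likelihood test and 0 passed a Benjamini-Hochberg FDR of 0.01. The background was the same, with 0% of 14470 genes called by edgeR and 0 by DESeq2, and 10 genes at an unadjusted p under 0.05. Cd36 had the largest log2 fold change of the 7, 2.74 (SE 2.35, edgeR FDR 1.00), and one of -0.29 (FDR 1.00) without KO 3. The remaining 6 lay between -0.88 (Pparg) and 0.98 (Lpl), each with an edgeR FDR of 1.00. Without KO 3, Lpl was at 0.22, Pparg at -0.67 and Fabp4 at 0.03, again with an FDR of 1.00 each. With RUVg, a correction for unwanted variation that the study used, 257 genes passed and again 0 members. The test after it was edgeR's exact test, whereas the study used edgeRun. The paper, in contrast, reports many genes as different between WT and KO MEFs at an FDR under 0.01. It checked several of these by qPCR in WT and KO cells, and then asked which depend on Sall2. Cd36 was among the few tested genes that it reports as responding to silencing of Sall2 by short hairpin RNA in immortalized WT MEFs, again by qPCR. The libraries here include no such cells.

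Doxorubicin was compared with control over all 9 libraries, with genotype as a term. The clearest result was Cebpa, which rose, with a higher level in all 4 cultures that have a ratio, while Pparg was lower in these 4 but did not pass. In this fit 8 of the 10 genes had enough counts, and 2 rose past an edgeR FDR of 0.01, Cebpa and Adipoq, while 0 fell. Adipoq, near 0 in every control, passed the count filter only through treated libraries, so its call is no independent support for a rise. Over all 16656 genes tested 40.6% were called, 21.9% as higher and 18.7% as lower, so the 2 of 8 members called are a smaller share than that of all genes. Treated and control libraries did not overlap for 3 members (Cebpa, Plin2 and Adipoq), a separation found for 46.4% of all genes. Since the KO 3 control had no distinct treated partner, a second fit took the culture (WT, Het, KO 1, KO 2) as a replicate block. In this paired fit 7 members were tested and 2 rose, Fabp4 and Cebpa, where 59.9% of 14735 genes were called, 30.9% as higher. With the shared KO library taken as KO 3 in the block, the same 2 members were called.

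Cebpa was at 100.4 CPM in WT, 68.0 in Het, 102.4 in KO 1 and 108.3 in KO 2 with doxorubicin. Its controls, at 4.15 to 12.5 CPM, were all far below. The log2 fold change was 3.55 (SE 0.295, edgeR FDR 3.80e-05), an 11.7-fold increase, and 3.41 (SE 0.155, FDR 4.57e-06) with the block. Its locus overlaps that of the antisense gene Gm45091 in GENCODE. The strand setting of the count is not given in the sources used here, and the annotation counted was not checked for Gm45091. Reads in the overlap may thus have been counted for neither gene, or reads of Gm45091 may have been counted for Cebpa. Per length, Cebpa reached a median of 38.5 RPKM and so drew level with Plin2, at 35.4 RPKM, with overlapping ranges.

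Pparg was at 2.89 CPM in WT, 0.809 in Het, 1.27 in KO 1 and 1.84 in KO 2 with doxorubicin. Each culture was below its own control, with log2 ratios of -0.97, -0.25, -0.92 and -1.29, but the treated and control libraries overlapped. The log2 fold change was -0.82 (SE 0.346, edgeR FDR 0.0734), and -0.88 (SE 0.255, FDR 0.0146) with the block, and neither passed. Without the Het and KO 3 cultures, a choice made after the data were seen, it was -1.09 (FDR 0.00519) and passed.

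Fabp4 was at 17.9 CPM in WT, 18.4 in Het, 14.0 in KO 1 and 15.8 in KO 2 with doxorubicin. These were close to one another, and only the KO 3 control, at 14.3 CPM, reached them. The log2 fold change was 1.18 (SE 0.337, edgeR FDR 0.0157). With the block it was 1.55 (SE 0.138, FDR 4.52e-05), a 2.93-fold increase that passed. It also passed without the KO 3 control (1.52, FDR 1.20e-05) and with the shared library taken as KO 3 (1.23, FDR 0.00878).

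Cd36 was at 13.1 CPM in WT, 129.2 in Het, 6.56 in KO 1 and 5.83 in KO 2 with doxorubicin. WT and KO 1 were above their own controls, with log2 ratios of 1.27 and 0.38, and Het was almost level with its control at -0.08. The shared KO library was above the KO 2 control, with a ratio of 0.68, and far below the KO 3 control, with -4.01. The sign of the fitted change depended on the KO 3 control and on the embryo to which the shared library belongs. It was -1.04 (SE 1.18, edgeR FDR 0.481) over all 9 libraries, 0.54 (SE 0.209, FDR 0.0397) without the KO 3 control, 0.59 (SE 0.212, FDR 0.0369) with the block and -0.36 (SE 0.794, FDR 0.726) with the shared library taken as KO 3 in the block, none of which passed. Without the Het and KO 3 cultures it was 0.80 (SE 0.215, FDR 0.00626) and passed. As a share of the macrophage marker sum, Cd36 was at 7.78% in WT, 14.8% in Het, 4.43% in KO 1 and 5.37% in KO 2 with doxorubicin, above the controls except in Het. The sum itself was 169.0, 872.8, 148.2 and 108.5 CPM, lower than the culture's own control in all but Het, and the interferon-stimulated sum was 245.0, 1286, 287.8 and 309.8 CPM, higher than the control in all but Het. Their part in the change was not tested.

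Lpl was at 17.0 CPM in WT, 20.6 in Het, 21.4 in KO 1 and 14.4 in KO 2 with doxorubicin. The 4 treated libraries lay within 1.48-fold, between the low and the high controls. The log2 ratios to the culture's control were 1.06, -0.25, 1.03 and 0.81. The fitted change was 0.31 (SE 0.391, edgeR FDR 0.527), and 0.71 (SE 0.231, FDR 0.0240) with the block, and did not pass in either. It was 0.99 (SE 0.173, FDR 0.000443) without the Het and KO 3 cultures and 1.02 (FDR 2.62e-07) in the block without Het, and passed in both, but 0.27 (FDR 0.559) with the shared library taken as KO 3.

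Plin2 was at 111.7 CPM in WT, 138.0 in Het, 136.2 in KO 1 and 112.3 in KO 2 with doxorubicin. All treated libraries lay below all controls. The change was small, at -0.53 (SE 0.165, edgeR FDR 0.0231), and -0.42 (SE 0.113, FDR 0.0104) with the block, and did not pass. It passed without the KO 3 control (-0.46, FDR 0.00584) and without the Het and KO 3 cultures (-0.40, FDR 0.00699). Plin4 had 21 counts in WT, 89 in Het, 24 in KO 1 and 32 in KO 2, and Het stood out at 4.23 CPM against 1.05 to 1.47 in the others. Its change was 0.94 (SE 0.468, FDR 0.116). Plin4 overlaps Hdgfl2 on the other strand and Pparg overlaps Gm44079, with the same uncertainty as for Cebpa.

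Of the genes restricted to mature adipocytes, Adipoq had 6 counts in WT, 16 in Het, 12 in KO 1 and 3 in KO 2 with doxorubicin, against 0 or 1 in the controls. All treated counts were above all control counts, but at under 1 CPM, and KO 2 did not exceed the limit of 3 counts. The edgeR test called it higher (FDR 0.00390), but it passed the count filter only through treated libraries, where it is high. The mean of 0.465 CPM was 3.17-fold that of 3 counts in each control. This is no lower bound, since a control count of 1 allows more than 3 and the treated counts carry error too. It had too few counts for the fit with the block. Plin1, with 1, 2, 1 and 4 counts, and Cfd, with 1, 2, 0 and 1 counts in the same order, were not tested.

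**Figure D3:**
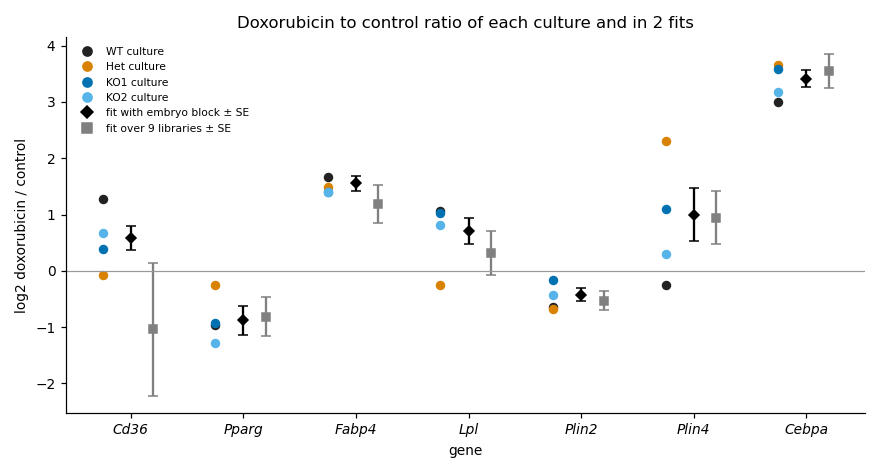
log2 ratio of doxorubicin to control for the 7 members tested with the block: coloured points are the 4 cultures, black diamonds the fit with culture as a block and grey squares the fit over all 9 libraries, with bars of 1 SE. Cebpa is far above 0 in all 4 cultures, Fabp4 also lies above 0 in all 4, the KO 2 points take the shared KO library as KO 2, and the 2 fits of Cd36 lie on opposite sides of 0 (0.59 and -1.04).

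With doxorubicin, KO was compared with WT and 0 of 8 members passed, where 0.197% of 15256 genes were called. Cd36 came nearest: KO 1 and KO 2 were below WT, with log2 ratios of -0.99 and -1.16, and the fitted change was -1.08 (SE 0.276, edgeR FDR 0.0307). This rests on 1 WT and 2 KO libraries, and the FDR ranged from 0.0259 to 1.00 over the alternatives. The Het library was 9.83-fold above WT. Pparg had a log2 fold change of -0.88 (FDR 1.00), and the other 6 lay between -0.26 and 0.42. The interaction of genotype and treatment, which asks whether doxorubicin acted differently in KO and WT, was called for 0 of 8 members and 0% of 15905 genes, with 41 genes at an unadjusted p under 0.05 and 0 called by DESeq2.

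The genes around the 10 members were followed in 6 lists of adipocyte and lipid biology, in the fit over 9 libraries, where the median log2 change of all genes was 0.02 and 21.9% of all genes rose and 18.7% fell. Of 26 regulators of adipogenesis, 8 rose (30.8%) and 6 fell (23.1%), with a median change of 0.69. Cebpb, an early activator of Cebpa and Pparg, fell by 2.89 on the log2 scale (SE 0.284, edgeR FDR 7.51e-05), from 10.4 to 27.4 CPM in the controls to 2.48 to 2.98 CPM. Zfp423, which commits cells to the preadipocyte fate, rose by 2.30 (1.85 to 3.85 CPM in controls and 13.1 to 15.7 treated), Klf5 by 2.23 and Klf15 by 1.95. Cebpa and Cebpb, members of the same family, therefore moved in opposite directions.

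Of 14 tested genes of fatty acid uptake and lipoproteins, 3 rose (21.4%, against 21.9% of all genes) and 0 fell, with a median change of 0.18. Those that rose were the fatty acid transport protein gene Slc27a3 (1.41), the HDL receptor gene Scarb1 (1.25) and the VLDL receptor gene Vldlr (0.81). Lrp1, the most abundant, had a change of -0.76 (edgeR FDR 0.162). With the block 5 rose (35.7%, against 30.9% of all genes) and 3 fell (21.4%, against 29.0%), and Lrp1 was among those that fell (-0.96, FDR 0.00352).

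Of 16 genes of lipid droplets and lipolysis, 8 rose (50%, against 21.9% of all genes) and 1 fell, with a median change of 1.18. Of the 16, Plin5, Cidea, Cideb, Cidec and Fitm1 had at most 6 counts in any control. They passed the count filter only through treated libraries, so the share and the median are no independent support for a rise. With the block 11 were tested, of which 8 rose (72.7%, against 30.9% of all genes) and 1 fell. Pnpla3, of the patatin-like lipase family, rose by 2.89 and Fitm2, needed for droplet budding, by 1.31, and Lipe (hormone-sensitive lipase) rose by 1.26, from 2.48 to 4.05 CPM to 5.80 to 8.65 CPM. The perilipin Plin3 fell by 1.31 (SE 0.177, edgeR FDR 0.000352), the same direction as its more abundant relative Plin2, whose change did not pass. Lipa, the lysosomal lipase and the most abundant of the list, had a change of 0.12 (FDR 0.622).

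Of 14 tested genes of triglyceride synthesis, 4 rose (28.6%) and 1 fell, with a median change of 0.15, and with the block 4 rose and 4 fell (30.8% each). Dgat2, the enzyme of the last step, rose most. It was at 5.94 CPM in WT, 2.66 in Het, 5.38 in KO 1, 5.81 in KO 2 and 3.02 in KO 3 without treatment. With doxorubicin it reached 284.2 CPM in WT, 145.5 in Het, 296.2 in KO 1 and 280.5 in KO 2. The groups lay far apart in every culture, with a log2 change of 5.83 (SE 0.235, edgeR FDR 2.29e-06). Acsl1, which activates fatty acids, rose by 1.75 and the phosphatase gene Lpin1 by 1.34, while the acyltransferase gene Agpat2 fell by 1.85, from 22.0 to 28.4 CPM to 6.07 to 7.99 CPM.

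Of 15 genes of fatty acid oxidation, 5 rose (33.3%) and 0 fell, with a median change of 0.15. They included Pdk4, the kinase that holds back pyruvate oxidation (2.50, from 9.33 to 22.7 CPM to 70.6 to 106.9 CPM), and the acyl-CoA dehydrogenase genes Acadm (1.29) and Acadvl (1.19). Of 10 tested other adipocyte genes, 4 rose (40.0%) and 0 fell, with a median change of 1.42. The β3-adrenergic receptor gene Adrb3 rose by 3.88, from 0.620 to 2.70 CPM to 17.3 to 27.1 CPM, and Slc2a4, the gene of the insulin-regulated glucose transporter GLUT4, by 2.26. The adiponectin receptor gene Adipor1 had a change of 0.67 (edgeR FDR 0.0122). Between KO and WT, 0 genes of the 6 lists passed, in control or with doxorubicin.

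Of the lists of other cell types, 0 of 9 fibroblast markers and 0 of 10 interferon-stimulated genes passed with doxorubicin in the fit over 9 libraries. Of 12 macrophage markers Cd68 rose (1.10) and Csf1r fell (-1.14). Of 8 tested endothelial markers 4 rose and 0 fell, and of 7 tested skeletal muscle markers 1 rose and 0 fell. In the same fit 21.9% of all genes rose and 18.7% fell. The endothelial marker Cldn5 had 0 or 1 counts in each control and 12 to 33 with doxorubicin. It therefore passed the count filter only through treated libraries. With the block, where 30.9% of all genes rose and 29.0% fell, 2 of 10 interferon-stimulated genes rose. Their median change was 1.83, against -0.82 in the fit over 9 libraries. With the block 6 of 7 endothelial markers rose, with a median of 2.55, and 1 fibroblast marker rose and 1 fell. The part of these lists in the changes of the lipid genes was not tested.

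**Figure D4:**
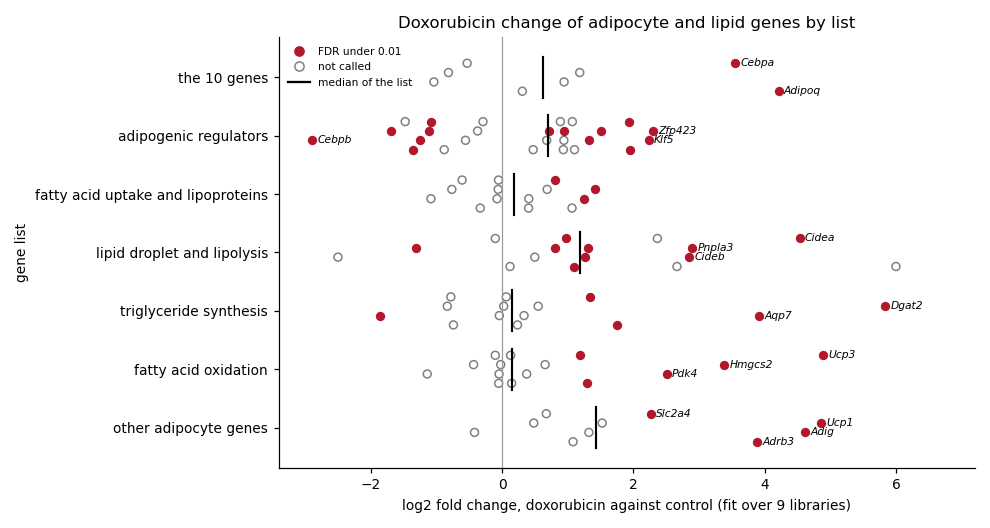
log2 fold change with doxorubicin (horizontal axis, fit over 9 libraries) of each tested gene in the 10 genes and 6 lists, red where the edgeR FDR was under 0.01 and open where not, with the median of each list as a black line. Called genes that changed by at least 2 on the log2 scale are named, some of which averaged under 1 CPM. Red points lie mostly to the right of 0 in each list apart from the adipogenic regulators, where 8 rose and 6 fell.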

How the data were processed

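RNA-Seq of MEFs gave 10 libraries, each sequenced in 4 files. The authors merged these, aligned the reads to mm10 with HISAT2 (2.1.0 in the submitters' processing notes) and counted them with HTSeq (union mode) over the genes of an iGenomes annotation. The deposited values are raw counts for 24062 genes. In union mode a read over overlapping genes is counted for none.

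Groups came from the sample labels. The analysis used edgeR 4.0.16 in R 4.3.3 (TMM scaling, filterByExpr, two-sided quasi-likelihood test, Benjamini-Hochberg adjustment over all genes tested, FDR under 0.01), which was tested on simulated data. CPM are TMM-scaled. RPKM divide them by the exon bases of GENCODE genes (GRCm38), which may differ from the annotation counted. log2 CPM and ratios of single libraries used a prior count of 2. Since WT has 1 library per treatment, p-values measure the spread between KO cultures and, in the fits with doxorubicin, also departures from additivity. The doxorubicin fit had genotype as a term, and KO against WT used only the groups compared.

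Labels give the KO libraries the same number in both treatments, and a number was taken as 1 culture, although no source says so in words. The difference between KO 1 and KO 2 in control correlated with that under doxorubicin (Pearson r 0.342 over 16656 genes, which are no independent replicates). With the shared library taken as KO 3, that between KO 1 and KO 3 did so less closely (0.173). KO 1 enters all of these differences and can alone make them correlate, so they cannot tell which embryo the shared library came from.

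The genes named are all 10 members, up to 4 called genes per list by largest change at an average of at least 1 CPM, the most abundant gene of each adipocyte or lipid list (1 of them is not reported here), and the 5 genes most like Cd36, Lpl and Pparg. C1qa, Emr1, Aif1 and the other macrophage markers were named after their values were seen, as were the muscle markers. The same holds for the genes said to pass the count filter only through treated libraries. The list genes Cavin1 and Adgre1 were matched through synonyms (Ptrf, Emr1). The members and lists were chosen with earlier results of these data known. Alternatives were DESeq2 1.42.0, other scalings, no filter, FDR 0.05 or 0.001, KO libraries alone, no genotype term, all libraries in a single fit, RUVg with 1 factor and edgeR's exact test (written anew, all but 5000 genes as controls), the replicate block and each library left out. Chosen after the data were seen were fits without the Het and KO 3 cultures, the block without Het, the shared KO library taken as KO 3, and KO against WT without each treated KO library.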

Additional observations from a re-analysis of the deposited data

Results flagged for a closer look

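For 3 members the doxorubicin to control ratio had opposite signs in different genotypes. Cd36 had log2 ratios of 1.27 in WT, 0.38 in KO 1 and 0.68 in KO 2, and of -0.080 in Het. Lpl had 1.06 in WT, 1.03 in KO 1 and 0.81 in KO 2, and -0.25 in Het. Plin4 had -0.25 in WT, and 2.31 in Het, 1.09 in KO 1 and 0.29 in KO 2. The KO 2 values take the shared KO library as KO 2. Against the KO 3 control that library had -4.01 for Cd36, -0.95 for Lpl and 1.02 for Plin4. Taken as KO 3, it would thus give Cd36 and Lpl both signs within KO. WT and Het are 1 culture each, and these differences with Het were not tested. The difference between WT and KO was tested as the interaction and was not called for any member.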

How the results depend on the processing

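The number of members called with doxorubicin (2 of 8) was 4 with DESeq2 (Cebpa, Adipoq and Fabp4 higher, Plin2 lower) and at an FDR of 0.05, and 1 at an FDR of 0.001 and with the KO libraries alone (Cebpa). Leaving out 1 library gave 1 to 4, with 4 without the KO 3 control and 1, Cebpa, without the WT or Het control or without the WT, Het or KO 1 doxorubicin library. It was 7 without the Het and KO 3 cultures (10281 of 15442 genes called) and 6 for the replicate block without Het (11064 of 14629). The replicate block itself gave 2 (Fabp4 and Cebpa), also with the shared library taken as KO 3 (where Cd36 was at -0.36), and it changed no call of a member in the interaction. Cebpa rose in all 20 alternative fits with a test. The sign of Cd36 with doxorubicin turned, to 0.54 without KO control 3 (-1.76 to 0.54 with any library left out), 0.59 with the replicate block, 0.80 without the Het and KO 3 cultures and 0.86 with the block without Het, and the other 18 alternatives were negative. In KO against WT controls Cd36 turned to -0.29 without KO 3 (3.26 to 3.28 without KO 1 or KO 2) and Plin2, at 0.0038, to -0.0139 without the filter, -0.18 without KO 3 (at most 0.090 without another), -0.041 with RUVg and -0.026 in a single fit. With doxorubicin 1 member, Cd36, was lower in KO at an FDR of 0.05. The cause of these changes was not tested, apart from the fewer libraries. Over all genes, called numbers in doxorubicin against control were 3430 at an FDR of 0.001, 1911 in KO alone and 4322 to 9770 with 1 library left out, and in KO against WT with doxorubicin they were 5 by DESeq2, RLE or upper-quartile scaling, 16 by library size, 0 in a single fit and 46 at an FDR of 0.05, against 30. In controls 47 and 41 genes were called without KO 1 and KO 2. Upper-quartile scaling moved the median change of all genes with doxorubicin to 0.21 and the calls to 4223 higher and 2424 lower, against 3645 and 3115. Of 242 counts of called genes in a list under an alternative, 84 moved by over 1.5 times. Counts under about 30, as for Plin4, Plin1, Adipoq and Cfd, limit what can be detected.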
